A study of Drosophila melanogaster with 2 samples.

Results

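The 5 genes described here encode Groucho and 4 repressors of the Hairy type in Drosophila melanogaster. They are gro, hry (the hairy gene), dpn (deadpan), Hey and cwo (clockwork orange), taken by name from 13945 protein-coding genes that the Ensembl annotation places on X, 4 and the arms of 2 and 3. Peaks were assigned to a gene when the summit lay in the gene span or within 2 kb of it. By that rule 4 of the 5744 peaks of the authors' reproducible list belonged to these genes. That list was thresholded on the irreproducible discovery rate (IDR).

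Chromatin immunoprecipitation with sequencing was carried out on whole embryos, male and female pooled, aged 0 to 24 hours. They came from the transgenic strain E(spl)m-beta-GFP, in which E(spl)mβ-HLH carries GFP at its C terminus. The antibody field names E(spl)mβ-HLH. There was 1 group of 2 biological replicates, numbered 1 and 3, and no other genotype, stage or treatment was analysed here. The free-text description of both samples speaks of an input control, against their assay title and antibody field, so every value carries this doubt about what was sequenced. The lists give no read counts and depth is unknown. In whole embryos, binding in few cells and weak binding in many cannot be told apart.

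Groucho is a corepressor that does not bind DNA itself. Hairy, Deadpan and the E(spl) proteins recruit it through a short motif at their C terminus, and their basic helix-loop-helix and Orange domains serve DNA binding and dimer formation. Hairy is a pair-rule repressor of the early embryo, Deadpan maintains neural stem cells, Hey acts downstream of Notch in newborn neurons, and Clockwork orange represses E-box targets of the circadian clock. The tagged protein belongs to the same family as 4 of these 5 genes' products, and it is encoded in the Enhancer of split (E(spl)) complex, which gro adjoins.

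The DNA under the 4 reproducible summits is printed to show which words lie there. Sequences are from the RefSeq copy of dm6, plus strand, within 100 bp of the summit and without annotated exon bases, which leaves 33 bases at the cwo start. Capitals mark, on either strand, the E-box class CANNTG, the E(spl)-type word CACGCG, the N-box class CACNAG and the Zelda word CAGGTAG. The capitals at the cwo start read CACGAG on the minus strand.
gro, chr3R:26042406-26042606: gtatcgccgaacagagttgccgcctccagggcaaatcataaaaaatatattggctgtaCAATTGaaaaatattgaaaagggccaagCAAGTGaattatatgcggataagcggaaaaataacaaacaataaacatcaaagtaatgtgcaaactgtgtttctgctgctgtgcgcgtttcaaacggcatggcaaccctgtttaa
hry, chr3L:8675606-8675758: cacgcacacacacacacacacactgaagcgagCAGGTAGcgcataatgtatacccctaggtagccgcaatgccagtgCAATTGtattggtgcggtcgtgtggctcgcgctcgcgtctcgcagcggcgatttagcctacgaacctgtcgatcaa
cwo start, chr3R:10388225-10388257: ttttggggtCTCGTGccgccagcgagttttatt
cwo first intron, chr3R:10390986-10391186: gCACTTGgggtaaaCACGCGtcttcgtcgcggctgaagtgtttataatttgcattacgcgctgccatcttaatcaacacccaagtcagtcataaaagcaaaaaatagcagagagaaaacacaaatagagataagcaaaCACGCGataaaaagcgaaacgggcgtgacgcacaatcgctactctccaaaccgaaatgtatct

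Reproducible peaks were listed at gro, hry and cwo, and at neither dpn nor Hey. These 3 of 5 genes stood beside 39.3% of all protein-coding genes with an IDR summit in the span or within 2 kb. The same 3 of 5 had summits in the longer lists of 30000 peaks, as did 59.5% of genes in the pooled list, 60.7% in that of replicate 1 and 61.7% in that of replicate 3. Each of the 3 had a summit within 1000 bp of a transcription start site (TSS), as 27.9% of all protein-coding genes did. A longer span has more room for a summit, and the spans of all 5 genes were longer than that of the median gene (2166 bp). They measured 12495 bp at cwo, 8176 bp at gro, 3495 bp at hry, 3360 bp at dpn and 2841 bp at Hey. With 5 genes no test of the share was made.

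**Figure D1:**
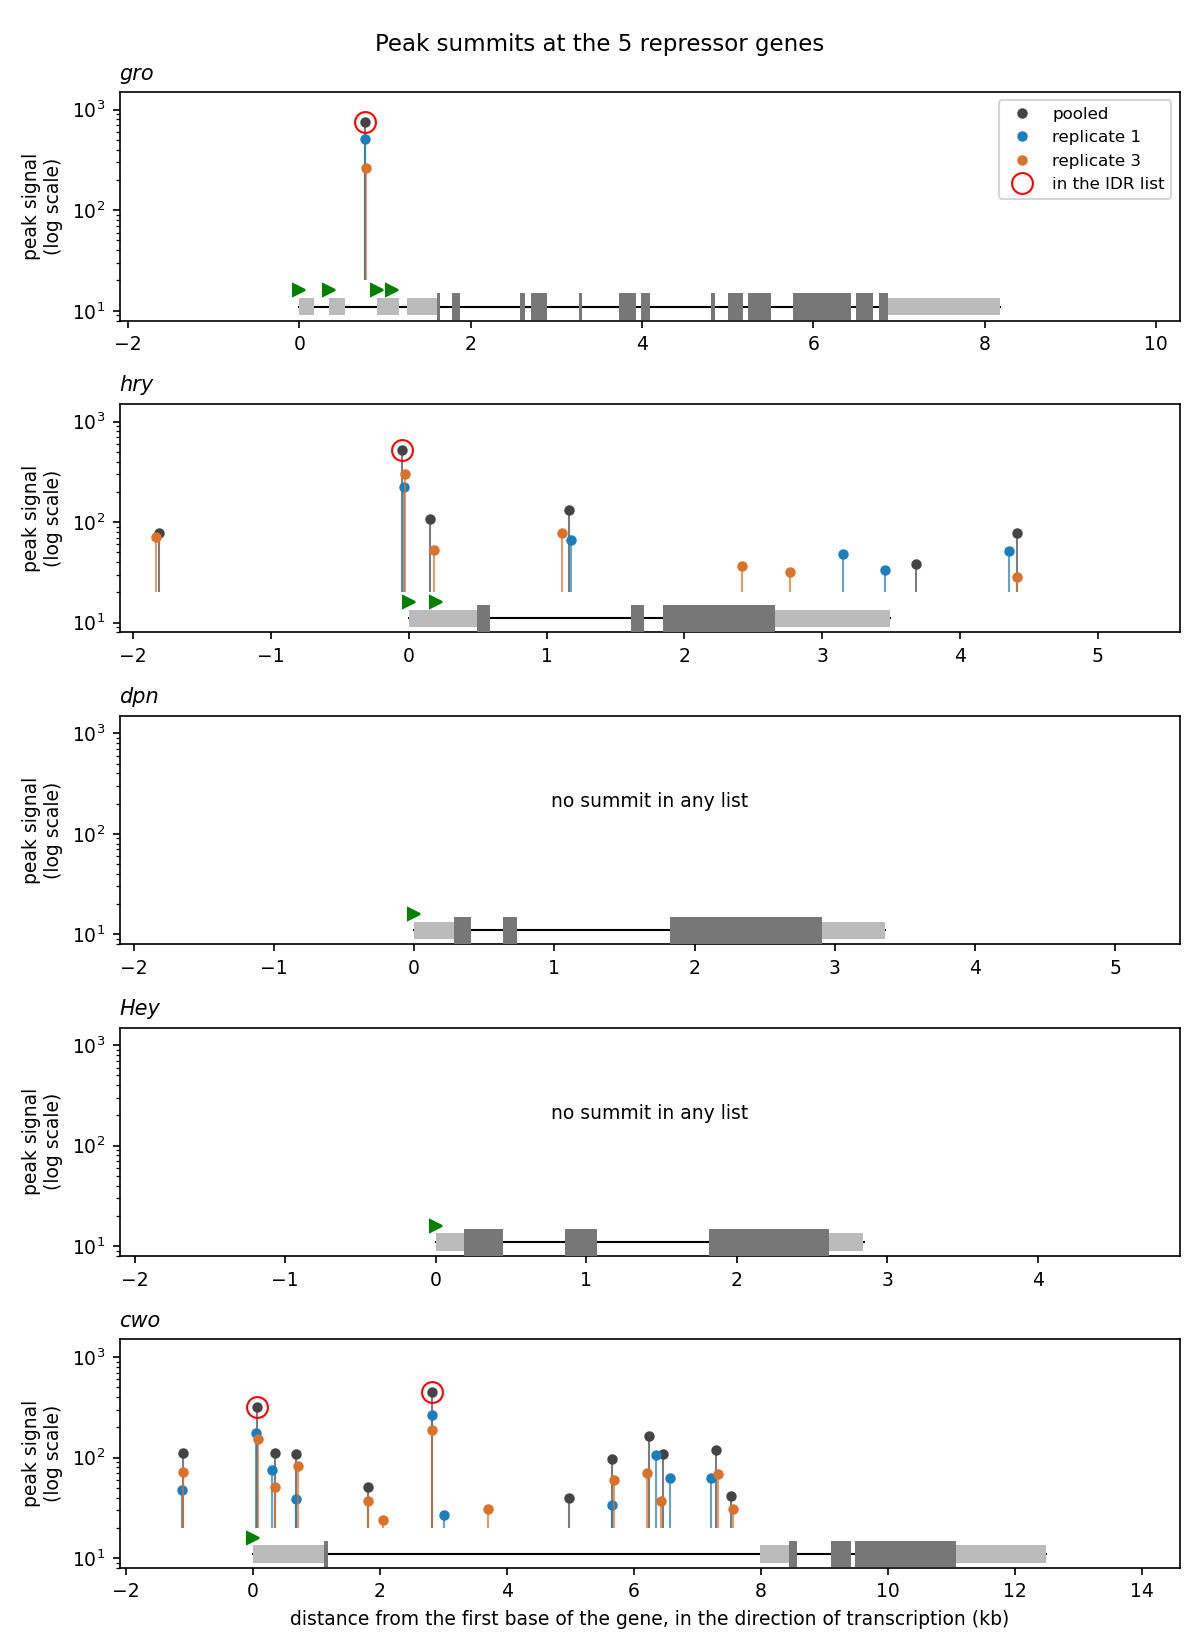
Peak summits along the 5 genes, one panel per gene. The horizontal axis gives the distance in kb from the first base of the gene in the direction of transcription, and the vertical axis the authors' signal on a log scale in the pooled list and both replicate lists. Red circles mark summits of the IDR list, grey boxes exons with coding parts darker, and green arrowheads TSSs. The panel of gro holds a single site, those of hry and cwo hold further weak sites, and those of dpn and Hey hold none.

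The gro gene (FBgn0001139) lies on the plus strand of 3R, from 26041736 to 26049911, and has 4 annotated TSSs. Its IDR peak spanned 3R 26042311 to 26042669 with the summit at 26042506. The signal, which is the authors' value for each peak within a list, was 761, and the peak ranked 484 of 5744. The median of the IDR list was 294. In replicate 1 the overlapping peak had a signal of 509 and ranked 383 of 30000. In replicate 3 it had a signal of 261 and ranked 743 of 30000. The lists were not scaled to each other, but against each list's own median these signals were 10.4 times and 6.81 times as high.

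The summit at gro fell between alternative starts. It lay 770 bp downstream of the TSS shared by 6 transcripts (gro-RB, gro-RE, gro-RG, gro-RH, gro-RI and gro-RJ) and 426 bp downstream of the TSS of gro-RA and gro-RD. The nearest start was that of gro-RF, 135 bp further downstream, and the TSS of gro-RC lay 314 bp downstream. Only the gro-RF start was inside the peak. The position is thus in the first intron of the 8 transcripts that begin upstream and in promoter sequence of the other 2. The replicate summits were 16 bp apart, against a median of 29 bp over the 5658 IDR peaks with an overlapping peak in both replicates.

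This was the only gro summit in any list, down to the weakest peaks, so the rest of the 8176 bp span and its flanks held none. Within 50 kb of the gro span the IDR list held 16 summits, the median gene having 6, a count that 5.91% of genes reached or passed, whereas the pooled list held 21, below the median gene's 27. The window includes the Enhancer of split complex with the tagged gene, whose TSS lay 36483 bp from the gro summit. The summit also lay 2266 bp from the TSS of E(spl)m8-HLH, the nearest gene of the complex, and it is the single IDR summit counted within 2 kb of that gene's span. The part that the tagged locus plays in the gro signal was not tested.

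The hry gene (FBgn0001168; 3L 8675759 to 8679253, plus strand) had its IDR summit at 8675706. This is 53 bp upstream of the hry-RB start and 249 bp upstream of the hry-RA start, and both starts lay inside the peak. The pooled signal was 519.8 and the IDR rank 988. The peak was 1169 bp wide (3L 8674966 to 8676134), wider than or as wide as 98.5% of IDR peaks, whose median width was 389 bp. The pooled list placed another, weaker summit within it, 150 bp downstream of the hry-RB start, with a signal of 108 and rank 10853. That summit is not in the IDR list. A summit within 100 bp of it was listed in replicate 3 (signal 52.6) and not in replicate 1.

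The replicates placed the main hry summit 9 bp apart but gave it different ranks. It had a signal of 223 and rank 1871 in replicate 1, and a signal of 298 and rank 564 in replicate 3. Over all IDR peaks found in both lists the median ratio of replicate 3 to replicate 1 signal was 0.743, and at hry it was 1.33. The log2 ratio of 0.42 lay above the 95th percentile of these peaks (0.29). At gro the ratio was 0.512, and 9.83% of peaks had one as low. The peaks at hry and gro therefore changed order between replicates: gro was the stronger in replicate 1 and hry in replicate 3.

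**Figure D2:**
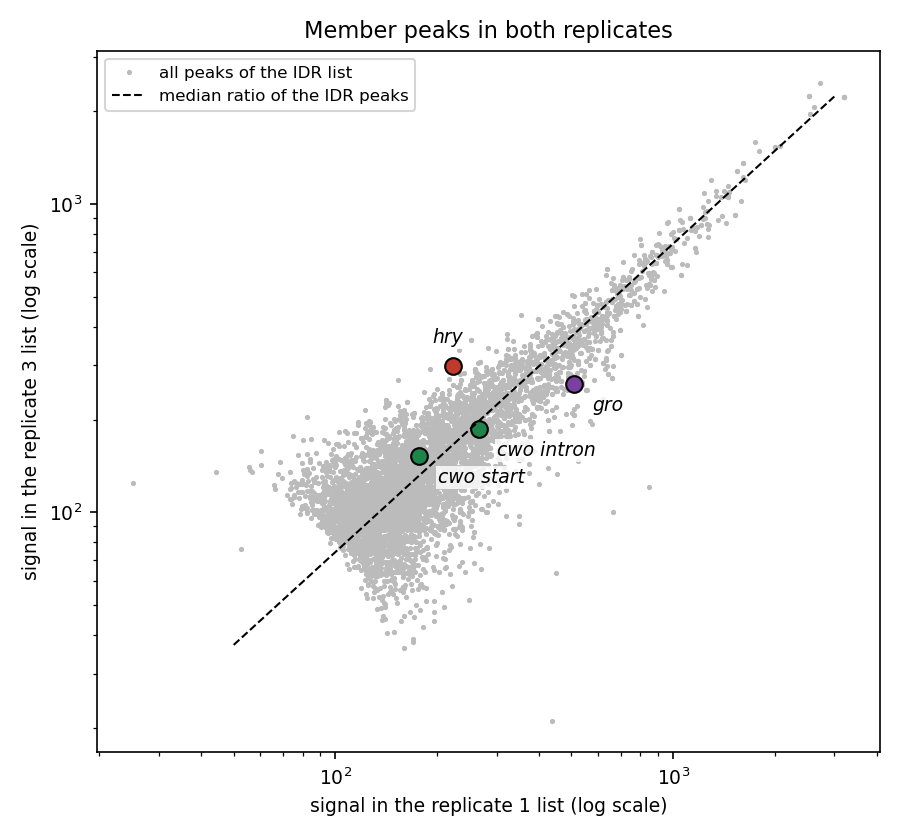
Signal of each IDR peak in the replicate 1 list (horizontal, log scale) and the replicate 3 list (vertical, log scale). Grey points are the 5658 peaks with an overlapping peak in both, coloured points the 4 peaks at gro, hry and cwo, and the dashed line the median ratio of 0.743. The hry peak lies above the line at 1.33, gro below it at 0.512, and the cwo peaks on either side of it at 0.702 and 0.861.

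Away from its start, hry carried weak sites only. The pooled list held 6 summits in the hry span and flanks, a number that 13.8% of genes reached. A summit within 100 bp in both replicates was listed for 3 of them, and the share over all pooled summits was not computed. One of these 3 was the main promoter summit. Another lay in the first intron, 1159 bp from the gene start, with a pooled signal of 132, 66.0 in replicate 1 and 78.1 in replicate 3. The third lay downstream of the gene, 4413 bp from its start, with 77.9, 51.7 and 28.5. Of the remaining sites, the one 1817 bp upstream was listed in replicate 3 (70.9) and had no replicate 1 summit within 100 bp. Just past the 2 kb limit, the pooled list held a stronger summit 2017 bp upstream (signal 112, rank 10442). Replicate 1 held one 2055 bp upstream (66.9, rank 10785). Summits of 1 replicate alone in the coding exons or 3′ untranslated region ranked 15314 or lower.

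Around hry, as around gro, the IDR list held more peaks than at the median gene. Within 50 kb of the span the pooled list held 60 summits, a count reached by 4.02% of genes, and the IDR list held 15, a count reached by 7.92% of genes, where the median gene had 6. The nearest IDR summit beyond the 2 kb limit lay 3943 bp past the end of the span, at 3L 8683196, with a signal of 199 and rank 5173. No other TSS of a protein-coding gene was nearer to it than that of hry.

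The cwo gene (FBgn0259938; 3R 10388258 to 10400752, plus strand) had a peak at its start and a stronger one in its first intron. All 3 transcripts share 1 TSS. One IDR summit, at 10388325, lay 67 bp downstream of it in the 5′ untranslated region (peak 3R 10388170 to 10388568), with a signal of 319 and rank 2471. The other, at 10391086, lay 2828 bp downstream in the first intron of all 3 transcripts (peak 3R 10390900 to 10391240), with a signal of 448 and rank 1298. At least 2 IDR summits in the span or within 2 kb were found for 18.2% of protein-coding genes.

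Both replicates ordered the cwo peaks the same way. The intronic peak had a signal of 266 (rank 1323) in replicate 1 and 186 (rank 1444) in replicate 3. The peak at the start had 177 (rank 2773) and 153 (rank 2149). The replicate summits were 7 bp apart in the intron and 27 bp apart at the start. The signal ratio was 0.702 in the intron and 0.861 at the start, and 41.3% and 71.7% of IDR peaks had one as low. The intronic peak was the stronger of the pair in each list.

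Weaker summits ran along much of the cwo first intron, which is 6799 to 7925 bp long depending on the transcript. The pooled list held 12 summits in the span and flanks, which 4.88% of genes reached, and 8 of the 12 were in this intron, 3 in the 5′ untranslated region and 1 upstream. Of the 12, 7 had a summit within 100 bp in both replicates, 4 in 1 replicate and 1 in neither. The share over all pooled summits was not computed, and the pooled list was made from the same 2 replicates. The strongest of those outside the IDR list lay 6240 bp from the start, with a pooled signal of 163 and rank 6692. Replicate 3 had a summit 37 bp from it (signal 69.8), whereas the nearest replicate 1 summit, with 106 and rank 6162, lay 6352 bp from the start.

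Another 5 cwo sites, all outside the IDR list, had a summit within 100 bp in both replicates. Of these, 4 ranked higher in replicate 3 and 1 ranked higher in replicate 1. The share over all pooled summits found in both replicates was not computed, so this split is not read as particular to cwo. The site 1106 bp upstream of the start had signals of 47.6 (rank 15502) in replicate 1 and 71.2 (rank 7276) in replicate 3. The site 349 bp from the start, in the 5′ untranslated region, had 75.6 (rank 9358) and 50.8 (rank 10943). The site 680 bp from the start had 38.7 (rank 19070) and 82.2 (rank 6042). The intronic site 5662 bp from the start had 33.5 (rank 21808) and 59.8 (rank 9067), and the one 7295 bp from the start had 62.6 (rank 11600) and 69.2 (rank 7539). No summit in any list lay beyond the first intron, in the exons that hold most of the coding sequence.

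No summit was listed at dpn or at Hey. The dpn gene (FBgn0010109) lies at 2R 8228971 to 8232330 and Hey (FBgn0027788) at 2R 7995438 to 7998278, both on the minus strand with 1 TSS each. Neither had a summit within 2 kb in the IDR list, the pooled list or either replicate list, which was also the case for 34.8% of all protein-coding genes. The weakest peaks listed had signals of 35.7 in the pooled list, 23.5 in replicate 1 and 18.8 in replicate 3. Any signal at dpn and Hey was therefore not listed at those levels, and the lists cannot show whether binding was absent.

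The 2 genes differed in their surroundings. The nearest summit to dpn lay 35615 bp from its span in replicate 1 and 37517 bp in replicate 3, in the span of LRP1 in both. The nearest IDR summit, 54944 bp away, lay 138 bp from a TSS of LRP1 and had a signal of 205. Within 50 kb of dpn the pooled list held 4 summits, the median gene having 27, and 6.10% of genes had as few. The IDR list held 0 there, as for 10.5% of genes.

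Hey stood nearer to listed peaks. Its nearest summit lay 6303 bp away in replicate 1, within the spans of ACC and Nup44A, and 4252 bp away in replicate 3, 410 bp from a TSS of CG11191. The nearest IDR summit was 7586 bp away, 610 bp from a TSS of Nup44A, with a signal of 279.9. The IDR list held 6 summits within 50 kb of Hey, the same as the median gene. The pooled list held 16 there against a median of 27, and 24.6% of genes had as few. Replicate 1 held 14 and replicate 3 held 21, against a median of 28 in each.

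**Figure D3:**
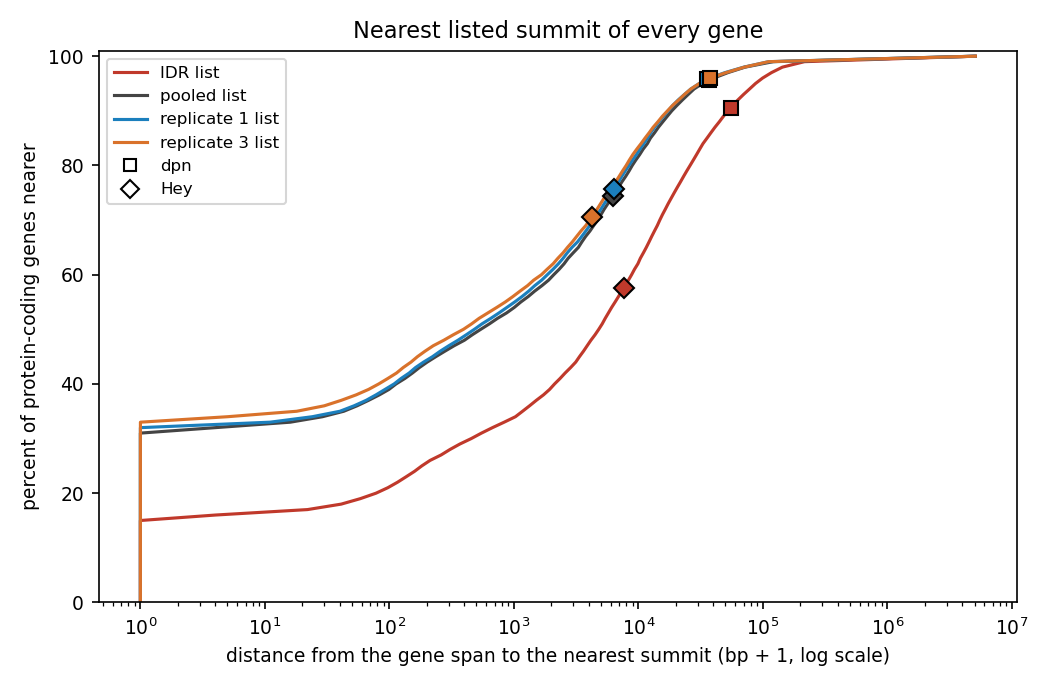
Distance from each protein-coding gene to the nearest listed summit (horizontal, bp plus 1, log scale) against the percent of genes that are nearer (vertical), one curve per list. Squares are dpn and diamonds Hey. From the pooled list, 4.33% of genes are as far as dpn and 25.6% as far as Hey, and gro, hry and cwo have a pooled summit inside their spans.

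The words of Hairy and E(spl) proteins counted together were the E-box named below, the E(spl)-type word and the N-box class. Within 100 bp, any of these lay at 2 of the 4 member summits, both at cwo, and at 31.6% of IDR summits. Within 250 bp, any of these lay at 4 of the 4 and at 60.0% of IDR summits. With 4 summits, no difference in these shares was tested. All 11 words were sought on both strands within 100 bp of the summit. The cwo intronic summit held the E(spl)-type word CACGCG at 2 places, centred 83.5 bp before and 40.5 bp after the summit in the sequence printed above. This word lay in the same window at 8.10% of IDR summits and in 6.41% of windows around 19252 TSS positions. The E-box CACGTG was at none of the 4 member summits. It was found at 4.07% of IDR summits and 2.80% of TSS windows, and the related word CACGTA, also absent here, at 5.03% and 4.42%.

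The other 3 summits lacked both CACGCG and CACGTG. The one at the cwo start had 1 N-box, of the form CACGAG, centred 88.5 bp upstream of the summit. That form lay at 4.82% of IDR summits, and any of the forms of CACNAG at 23.0%. In the window of 250 bp on each side, CACGCG lay 157.5 bp before the gro summit, inside its peak. That word was in this window at 16.7% of IDR summits. Within 100 bp the gro window had none of the E(spl)-type words. It had 2 matches to the wider class CANNTG, centred 39.5 bp and 11.5 bp before the summit, a class found in 3 of the 4 member windows and in 62.6% of those of all IDR summits. The hry window held the Zelda word CAGGTAG, centred 65 bp upstream of the summit, which 0.749% of IDR summits and 1.08% of TSS windows had.

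Among words of general promoter factors, those of DREF and the GAGA factor were sought, and neither was found within 100 bp. The DREF word TATCGATA, at 3.80% of IDR summits, and the GAGA factor word GAGAGAG, at 6.46%, were in none of the 4 windows. In the wider window of 250 bp on each side, GAGAGAG lay at 3 places upstream of the summit at the cwo start, centred 111, 151 and 174 bp from it, and 17.1% of IDR summits had the word there. In base composition hry stood apart from the others. The 201 bp around its summit had a G+C content of 57.7%, which 1.79% of IDR summits reached. At gro it was 39.8%, the median of all IDR summits, and at cwo it was 41.8% at the start and 43.8% in the intron. No match means only that these letters are not in the window searched.

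Other repressors of the family were covered unevenly. Of 8 further bHLH-Orange genes, 3 had an IDR summit within 1000 bp of a TSS, against 27.9% of all genes. The tagged gene E(spl)mbeta-HLH had the strongest peak of the list (signal 5401). Sidpn, whose name marks it as similar to deadpan, had a peak of 546, close to the 519.8 of hry in the pooled list only. The Sidpn peak ranked 901 in replicate 1 and 982 in replicate 3, where that of hry ranked 1871 and 564. E(spl)m3-HLH had one of 231, ranked 4184. The remaining 5, all of the E(spl) complex, had none at a start. For E(spl)m8-HLH the single summit within 2 kb of its span was the one at gro. The pooled list also gave no summit within 2 kb for the other 4, as for dpn and Hey. Of all protein-coding genes, 59.5% had a pooled summit by that rule, so its lack is common.

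Genes of other corepressors had IDR summits at the start in 4 of 5 cases, against 27.9% of all protein-coding genes. Sin3A, a scaffold of histone deacetylase complexes, had a signal of 823, near that of gro, and ranked 590 in replicate 1 and 290 in replicate 3. HDAC1, the deacetylase itself, had 245, CtBP, a corepressor that Hairy also binds, had 228, and Smr had 193. H, the Hairless adaptor that brings Groucho and CtBP to Su(H), had none. Among 12 genes of factors that recruit Groucho 3 had one, namely brk, a repressor of Dpp targets (539), dl, the Dorsal factor of the dorsoventral axis (282), and pan, the TCF of Wnt signalling (239). These 3 of 12 are 25.0%, close to the 27.9% of all genes. The other 9 were en, run, odd, slp1, hkb, ind, vnd, eve and Dr.

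**Figure D4:**
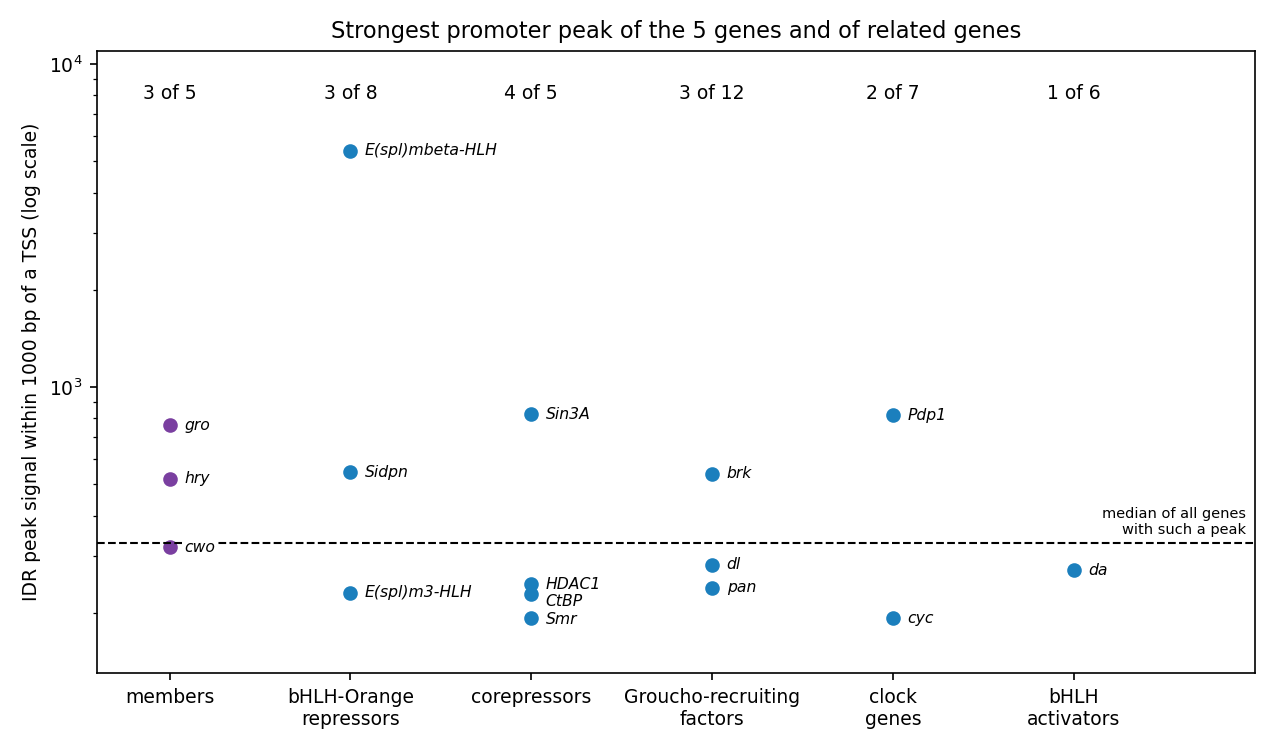
IDR signal (log scale) of the strongest peak within 1000 bp of a TSS for the 5 genes and 5 lists of related genes, with the number of genes that have such a peak over each column. The dashed line is the median of all 3888 genes with such a peak (329.7). The signals of gro and hry lie above it, that of cwo just below it, and E(spl)mbeta-HLH stands highest at 5401.

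Clock genes and proneural genes include known targets of cwo and of other repressors of the family, but not every gene listed here is such a target. Of 7 clock genes, Pdp1 (signal 816) and cyc (192) had an IDR summit at a start, a share of 28.6% against 27.9% of all genes, and Clk, per, tim, vri and cry had none. Outside the IDR list, vri had a pooled summit within 1000 bp of a TSS, with a signal of 65.5 and rank 17663. Of 6 activator genes of the bHLH class, da, the common partner of proneural factors, had one (270.3), a share of 16.7% against the same 27.9%, and ac, sc, l(1)sc, ase and ato had none. These lists hold 5 to 12 genes each, and no difference between them was tested.

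Placed among all 3888 genes with an IDR summit at a start, gro, hry and cwo stood at different heights. A signal at least as high was found for 13.0% of these genes at the gro level, 23.3% at the hry level and 52.8% at the level of the cwo start. By the signals of the strongest start peak in both replicate lists, compared over 6340 genes, the gene most like gro was CG1074 (502 and 257.1), that most like hry was CG9837 (208 and 292), and that most like cwo was CG8312 (178 and 153). Distances on the log2 scale were 0.027, 0.11 and 0.0041, and with 2 replicates they describe similar strength at the start only.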

How the data were processed

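The data were lists of peaks from chromatin immunoprecipitation with sequencing on embryos of 1 transgenic line, with 2 biological replicates. Per the labels, chromatin was sonicated to fragments of 200 to 800 bp. The authors deposited 4 lists in narrowPeak layout on dm6. Per the deposited file descriptions, each replicate list was derived from the alignment of that replicate and a control, and the pooled list from both alignments and the control. These lists hold 30000 peaks each, background included. The IDR list was made from the other 3, and its 5744 rows equalled the strongest pooled rows. Which aligner, peak caller and IDR threshold were used is not given in the sources used for this work. The deposited signal is the authors' value per peak, not scaled between lists. The deposited −log10 q-value stood at 4.09 for every IDR peak and was not used to rank.

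Summits were the peak start plus the deposited offset. Genes came from Ensembl release 115 and sequence from the RefSeq copy of dm6, and 0 peaks ran past the end of an arm. Peaks were counted singly and not merged. Percentages of genes are over 13945 protein-coding genes and 1000 bp or 2 kb windows, as stated. Replicate peaks were those of highest signal that shared at least 1 bp with the IDR peak. With 1 group, no p-value was computed and all comparisons are descriptions. The code was tested on simulated data. Analyses used Python 3.11.15, pandas 2.3.3 and numpy 2.4.6.

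The members and the lists of related genes were chosen with earlier results of these data known. The rule named all 5 members, every related gene with an IDR summit within 1000 bp of a TSS, and the gene nearest to each such member in both replicate signals. Genes without such a summit are also named, outside that rule and with their values known.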

Additional observations from a re-analysis of the deposited data

How the results depend on the processing

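Settings that changed the flank (none, 1 kb or 5 kb), the TSS distance (500 or 2000 bp), the list (full pooled list or the stronger 2872 IDR peaks) or the annotation (RefSeq spans) left 3 members with a summit. The exception was the gene span alone, which gave 2, since the hry summit lies upstream. Leaving out either replicate also gave 3. All 4 IDR peaks had a partner in both replicates at 1 bp, at 50% of both peaks, and with summits within 100 bp. At 1 bp nearly every IDR peak had one, 5658 of 5744. The share of all IDR peaks was not computed for the other settings. Merging overlapping peaks kept the numbers of summits at 1, 1, 0, 0 and 2. As a percent of the 5744 strongest, the gro peak ranked at 8.43 and between 6.67 and 12.9 when either replicate was left out, cwo at 22.6 and between 23.0 and 25.1, and hry at 17.2 and between 9.82 and 32.6. Word counts depended on the window. CACGTG or CACGCG was at 1 of 4 summits within 50 or 100 bp and at 2 within 250 bp, and CACNAG at 0, 1 and 2. The shares of all IDR summits rose with the window too. Within 50, 100 and 250 bp they were 6.42%, 11.7% and 24.1% for CACGTG or CACGCG. For CACNAG they were 11.7%, 23.0% and 47.8%. CACGTA and GAGAGAG were at 0 summits within 50 or 100 bp and at 1 within 250 bp, the cwo start for both. Within 250 bp, 12.7% of IDR summits had CACGTA and 17.1% had GAGAGAG. For the ranks, the cause was not tested. No paired analysis was possible because there is 1 group. The lists hold no depth, so an unlisted site is limited by the weakest listed signal only.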
